A study of Mus musculus with 8 samples.

Results

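The 37 genes described here make, store, break down and move fat in the liver: 3 transcription factors, 6 genes of fatty acid synthesis, 5 of desaturation and elongation, 7 of esterification, 5 of lipolysis, 6 of lipid droplet proteins and 5 of uptake, activation and export. They were chosen by symbol as a functional set, and each was read through the probe set tied to that symbol alone that had the highest mean over all arrays. All 37 were found among the 19938 genes measured. Acaca and Me1 had a further probe set each, described beside them. The arrays hold liver RNA of 4 transgenic and 4 control mice, all 4 weeks of age, with 1 array per liver. The transgenic mice carry constitutively active IKK2, the kinase that switches on NF-kB, behind the LAP promoter, which drives expression in hepatocytes. The controls are labelled wild type. Both groups come from 1 breeding stock, C57BL/6 mixed with NMRI and then backcrossed to C57BL/6 for at least 4 generations, and arrays within a group are labelled as biological replicates. Values are log2 expression values, so a difference of 1 is a 2-fold change.

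The liver builds fatty acids from citrate through ATP citrate lyase, acetyl-CoA carboxylase and fatty acid synthase, desaturates and lengthens them, and joins them to glycerol to form triglyceride. Insulin drives this programme through the transcription factor SREBP-1c (gene Srebf1) and glucose drives it through ChREBP (gene Mlxipl). Triglyceride is kept in droplets coated by perilipins and CIDE proteins, released again by lipases, or exported on very low density lipoprotein built around apolipoprotein B.

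Ikbkb, the gene of the kinase, read 8.995, 9.093, 8.383 and 8.376 in transgenic replicates 1 to 4, and 7.44 to 7.85 in control livers. Transgenic replicates 1 and 2 thus read higher than transgenic replicates 3 and 4. Whether other genes follow the Ikbkb reading from liver to liver was not tested. Whether the Ikbkb probe set reads the transgene was not tested either. Array medians lay between 4.88 and 5.08 over both groups. Transgenic replicate 2 stood somewhat apart: its median correlation with the other transgenic arrays was 0.979, against 0.988 to 0.989 for the other transgenic arrays and 0.989 to 0.991 for the controls. It was the lowest transgenic array for 21 of the 37 genes. Results without it are therefore given for the 37 as a set, for those that passed the test and for some other genes. Correlations with the control arrays were 0.952 to 0.961 for transgenic replicate 2 and 0.970 to 0.979 for transgenic replicate 1. Transgenic replicates 3 and 4 lay closer to the controls, at 0.983 to 0.987 and 0.984 to 0.990. Of 12 markers of Kupffer cells and macrophages 8 were called higher and 0 lower, beside 4.67% and 1.67% of all genes. Their summed linear signal was 6623 to 14601 in transgenic livers against 2649.8 to 3569 in controls. Transgenic replicate 2 was the highest transgenic array for all 12 markers. Of 10 measured hepatocyte markers 0 were called, and 1 was lower at an unadjusted p under 0.05 (18.3% of all genes were). Their summed linear signal was 66850 to 76291 in transgenic livers and 72660 to 78109 in controls. Their mean log2 values were 12.49 to 12.69 and 12.56 to 12.72. Of 7 lymphocyte markers 3 were called higher (summed signal 281 to 536 against 187 to 206), and of 7 stellate cell markers 2 were called higher (4092 to 4293 against 2735 to 3319). Of 5 adipocyte markers 0 were called (131 to 172 against 152 to 185, with 1 lower at an unadjusted p under 0.05). Adipoq, an adipocyte hormone, stayed under every array median at 3.29 to 3.60 in transgenic livers and 3.36 to 3.48 in controls. Lep did too, at 3.00 to 3.34 and 3.23 to 3.38. Retn read 4.59 to 4.83 and 4.88 to 5.03, and Plin1 4.93 to 5.45 and 5.28 to 5.81. Fabp4 lay above every array median, at 5.72 to 6.38 and 5.71 to 6.46. In whole liver, fewer cells of a type and less RNA per cell cannot be told apart.

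Most of the 37 genes lay lower in transgenic liver, though few passed the test. Called means an adjusted p under 0.05 in limma's linear model fitted to all probe sets with 1 gene symbol. The lysophospholipid carrier Mfsd2a, the NADPH-making malic enzyme Me1, the droplet protein Plin5 and the fatty acid elongase Elovl5 fell, and the fatty acid receptor Cd36 rose. These are 4 called lower of 37, beside 1.67% of all genes, and 1 called higher of 37, beside 4.67% of all genes; 32 were not called. At an unadjusted p under 0.05, 15 of the 37 were lower and 2 higher, against 18.3% and 15.3% of all genes. The log2 fold change was negative for 30 of the 37 and for 12284 of the 19938 genes, with a median of -0.28 for the 37 and -0.07 for all genes. Among the 4985 brightest genes, which include 28 of the 37, the median was -0.29 for those 28 and 0.06 for all 4985. A closer match on brightness was not made. Without transgenic replicate 2 the median of the 37 was -0.23, with 3 called lower and 1 higher. The number of calls rested on single arrays: it was 0 without transgenic replicate 1, control replicate 1 or control replicate 2, and 1 without control replicate 3 or 4. It was 6 without transgenic replicate 3 and 8 without transgenic replicate 4. Over all genes the counts moved too, from 932 higher and 333 lower with all arrays. They were 199 and 3 without transgenic replicate 1, 256 and 13 without control replicate 1, and 192 and 10 without control replicate 2. Without transgenic replicate 4 they were 1636 and 944. The plot of fold changes by role shows the set as a whole.

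**Figure D1:**
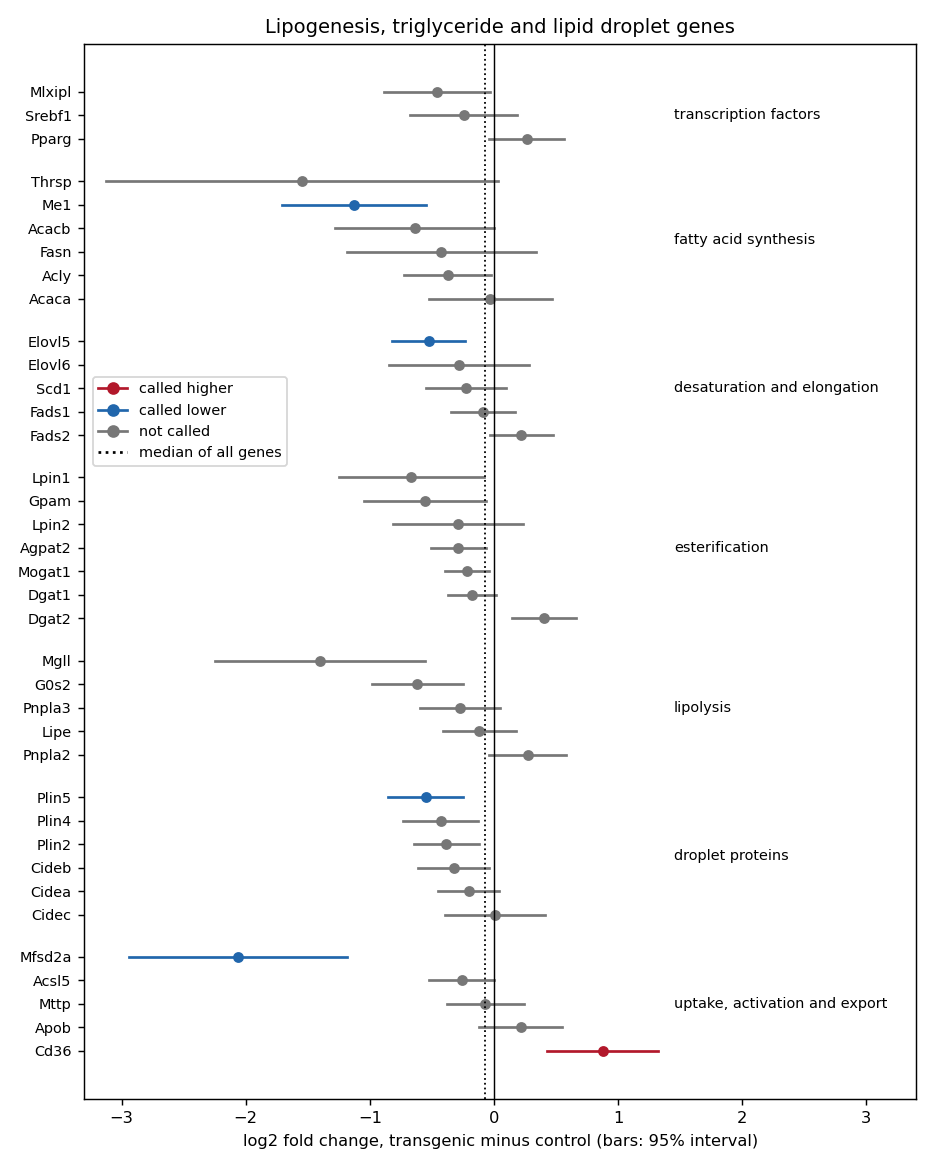
Log2 fold change (transgenic minus control, horizontal axis) of each of the 37 genes, grouped by role; points are limma estimates from 4 transgenic and 4 control livers, bars their 95% intervals, and the dotted line the median of all genes (-0.07). Points lie left of 0 for 30 genes; blue marks the 4 called lower, red the 1 called higher.

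The 250 bases before the RefSeq start (build GRCm38.p6) of the 5 called genes are shown as the stretch in which promoter motifs were looked for. Capitals mark matches, on either strand, to CACGTG (the E-box) or to GGG, any 5 bases and CC. The latter is a loose form of the NF-kB site, called NF-kB core here. Further motifs searched were TCACNCCAC (a sterol element bound by SREBP) and direct repeats of AGGTCA with 1 base between them (the PPAR element) or 4 (the LXR element). Where a gene has several starts, the one farthest upstream is printed.
Mfsd2a, chr4:122961189-122961438 (minus strand), no match: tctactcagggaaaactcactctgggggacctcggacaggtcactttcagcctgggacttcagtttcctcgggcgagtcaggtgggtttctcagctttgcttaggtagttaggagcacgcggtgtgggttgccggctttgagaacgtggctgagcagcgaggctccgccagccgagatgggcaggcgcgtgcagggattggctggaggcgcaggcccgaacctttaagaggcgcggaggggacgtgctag
Me1, chr9:86695915-86696164 (minus strand), 1 NF-kB core: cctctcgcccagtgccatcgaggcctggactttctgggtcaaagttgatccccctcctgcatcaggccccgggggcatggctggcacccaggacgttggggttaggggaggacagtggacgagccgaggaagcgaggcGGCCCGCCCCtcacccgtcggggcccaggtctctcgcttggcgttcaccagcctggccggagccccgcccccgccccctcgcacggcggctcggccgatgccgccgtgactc
Plin5, chr17:56117549-56117798 (minus strand), 2 NF-kB cores: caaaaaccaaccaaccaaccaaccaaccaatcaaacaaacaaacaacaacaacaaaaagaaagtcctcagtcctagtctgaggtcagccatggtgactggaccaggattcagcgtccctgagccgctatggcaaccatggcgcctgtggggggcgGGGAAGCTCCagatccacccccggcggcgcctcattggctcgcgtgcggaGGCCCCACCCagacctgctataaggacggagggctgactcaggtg
Elovl5, chr9:77917115-77917364 (plus strand), 1 E-box: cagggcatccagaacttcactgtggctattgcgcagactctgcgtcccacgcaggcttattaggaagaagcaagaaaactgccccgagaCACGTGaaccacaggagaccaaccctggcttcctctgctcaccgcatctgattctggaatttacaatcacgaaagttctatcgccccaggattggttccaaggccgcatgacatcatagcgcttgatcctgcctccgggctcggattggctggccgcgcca
Cd36, chr5:17835897-17836146 (minus strand), 1 NF-kB core: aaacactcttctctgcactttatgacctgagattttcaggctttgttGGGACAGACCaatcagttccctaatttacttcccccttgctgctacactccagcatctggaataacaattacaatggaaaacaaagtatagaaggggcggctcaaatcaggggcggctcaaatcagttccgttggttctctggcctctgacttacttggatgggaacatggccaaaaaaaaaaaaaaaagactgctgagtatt
The E-box of Elovl5 begins at position -161 from the start and the NF-kB core of Me1 at -112. Those of Plin5 begin at -95 and -45, and that of Cd36 at -203. The table of promoters held 32 of the 37 genes, with 45 windows; Scd1, Fads1, Dgat1, Dgat2 and Cidea were not matched. The loose NF-kB core was found in 31 of the 45 windows (68.9%) and in 45.8% of all 32851 windows. The E-box was found in 5 of the 45 windows (and in 6.02% of all), the sterol element in 1, before a start of Mlxipl (2.22%, against 1.05%), and the PPAR and LXR elements in 0 (against 0.0335% and 0.0152%). Some genes have several windows, and the windows were not matched to all others on base composition. Matches of the NF-kB core can overlap each other, and a match describes the letters only.

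The transcription factors that drive lipogenesis were not called. Srebf1, which encodes SREBP-1c, had a log2 fold change of -0.24 (95% interval -0.68 to 0.19, adjusted p = 0.374), with 7.58 to 8.19 in transgenic livers and 7.62 to 8.48 in controls. Mlxipl, which encodes the glucose-responsive ChREBP, stood at -0.46 (95% interval -0.89 to -0.04, adjusted p = 0.128); its 4 transgenic values were 7.29, 6.70, 7.57 and 7.63, against 7.93, 7.55, 7.84 and 7.72 in controls. Transgenic replicate 2 was the lowest array for both of them. Pparg, a nuclear receptor that promotes fat storage, was 1 of 7 genes with a positive value, 0.26 (95% interval -0.04 to 0.57, adjusted p = 0.199), and its groups overlapped.

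Fatty acid synthesis gave 1 call among 6 genes, beside 1.67% of all genes called lower. All 6 log2 fold changes were negative, as were 12284 of the 19938 over all genes. The median of the 6 was -0.53, against -0.07 for all genes. Me1, which supplies NADPH for the synthesis of fatty acids, read 10.02, 9.04, 9.96 and 10.42 in transgenic replicates 1 to 4, against 11.25, 11.03, 11.05 and 10.64 in control replicates 1 to 4. Every transgenic liver lay below every control, transgenic replicate 2 farthest. The fall was 1.13 on the log2 scale, or 2.18-fold (SE 0.26, adjusted p = 0.0393), and a further Me1 probe set gave -1.11 (adjusted p = 0.0371). Without transgenic replicate 2 the fall was smaller but still called (-0.85, adjusted p = 0.0127). Me1 missed the threshold when transgenic replicate 1 (adjusted p = 0.103) or any 1 of control replicates 1 to 4 (0.09475, 0.107, 0.104 and 0.0664) was left out. It also missed with arrays centred on their medians (-1.05, adjusted p = 0.0516) and when all deposited probe sets were tested (0.0687), and passed in 9 of 18 alternative settings.

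Thrsp, the nuclear protein Spot 14 that responds to thyroid hormone and carbohydrate, had the widest spread between transgenic livers of the 37 genes (SD 1.61, n = 4, against 0.79 in controls). It read 8.58, 6.43, 9.59 and 10.06 in transgenic livers, against 10.27, 10.12, 11.19 and 9.26 in controls. The groups overlapped, since transgenic replicates 3 and 4 lay above control replicate 4. Its log2 fold change of -1.54 had a wide interval (-3.12 to 0.04, adjusted p = 0.157), and it was -0.80 without transgenic replicate 2. Acacb, the acetyl-CoA carboxylase that restrains fatty acid oxidation, read 8.21, 7.29, 8.33 and 8.63 in transgenic livers, against 8.88, 8.36, 9.27 and 8.50 in controls. Here too transgenic replicate 2 was the lowest, and transgenic replicate 4 lay above 2 of the controls. Acacb stood at -0.64 (SE 0.29, adjusted p = 0.151).

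The central enzymes of the pathway were not called. Fasn, fatty acid synthase, had a log2 fold change of -0.42 (95% interval -1.18 to 0.33, adjusted p = 0.379), and Acly, which makes cytosolic acetyl-CoA, stood at -0.37 (-0.72 to -0.02, adjusted p = 0.134). For Acaca, the acetyl-CoA carboxylase that feeds synthesis, the value was -0.03 (-0.53 to 0.47, adjusted p = 0.931), and a further probe set gave -0.04. The controls themselves were spread: Fasn ran over 9.24 to 10.93 in them and over 9.08 to 9.97 in transgenic livers. Control replicate 3 was the highest control for 5 of the 6 synthesis genes, all except Me1, and control replicates 2 and 4 were the lowest for 3 each. Transgenic replicate 2 was the lowest transgenic array for 5 of the 6, all except Acly. The map of differences by array shows both patterns.

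**Figure D2:**
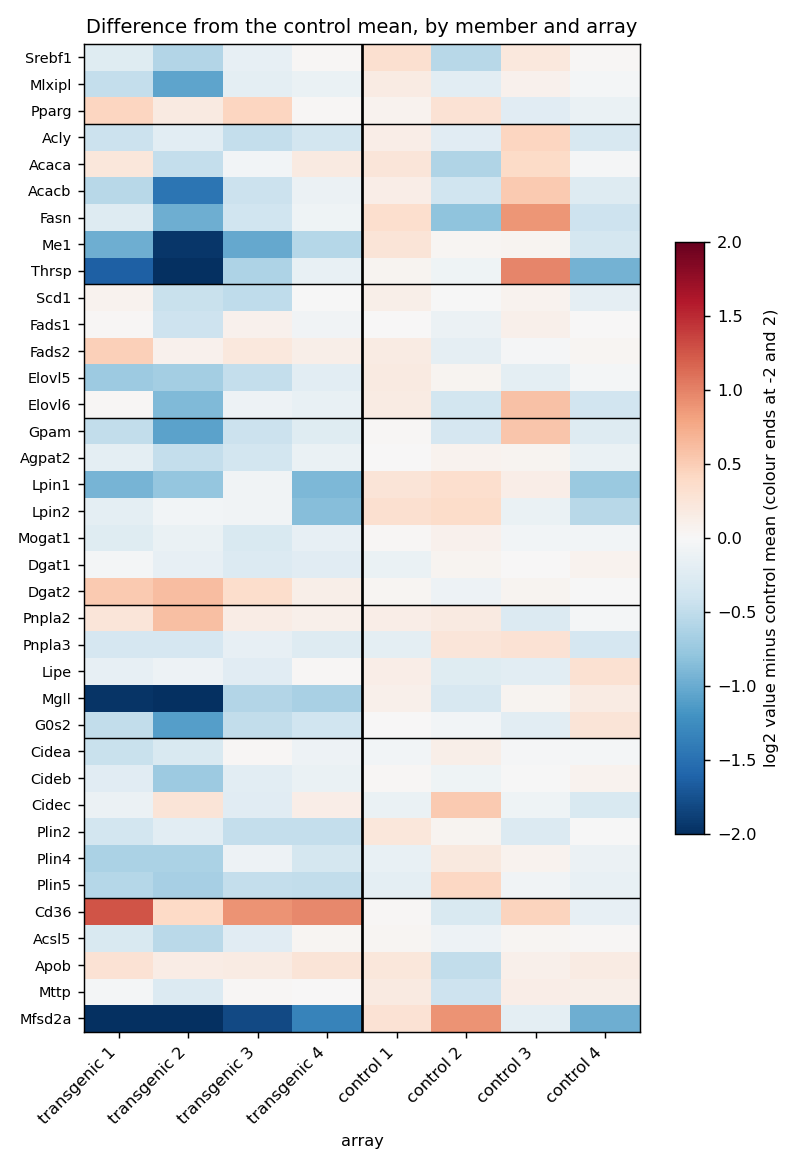
Log2 value of each of the 37 genes (rows, ordered by role and separated by lines) in each array (columns, 4 transgenic left of 4 control) minus the control mean of that gene; colour ends at -2 and 2. Blue cells dominate the transgenic columns, most deeply in transgenic replicate 2; Cd36 and Dgat2 are red in all 4 transgenic livers, and control replicate 3 is red for Fasn and Thrsp.

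Among 5 genes of desaturation and elongation 1, Elovl5, was called lower, beside 1.67% of all genes. Elovl5, which lengthens polyunsaturated fatty acids, read 11.22, 11.26, 11.47 and 11.73 in transgenic livers, against 12.13, 12.00, 11.74 and 11.91 in controls. The groups did not overlap, but transgenic replicate 4 and control replicate 3 were close together. The fall was 0.53 on the log2 scale, or 1.44-fold (SE 0.13, adjusted p = 0.0465). Among the 8 fits that left out 1 array, it stayed called without transgenic replicate 4 (adjusted p = 0.0165) and in no other, with adjusted p from 0.0510 to 0.132. Median centring (-0.45, adjusted p = 0.0720) and testing all deposited probe sets (0.0765) also ended the call, and 7 of 18 alternative settings kept it. Without transgenic replicate 2 it stood at -0.47 (adjusted p = 0.0717).

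The desaturases were not called. Scd1, which makes oleate and palmitoleate, had a log2 fold change of -0.23 (95% interval -0.55 to 0.09). The neighbouring genes Fads1 and Fads2, which introduce double bonds into polyunsaturated fatty acids, stood at -0.09 (-0.35 to 0.17) and 0.22 (-0.03 to 0.47). Elovl6, which lengthens palmitate to stearate, stood at -0.28 (-0.85 to 0.29) and, like Fasn, had its highest control value in replicate 3 (10.27). The adjusted p of these 4 genes lay between 0.192 and 0.582.

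Esterification, the joining of fatty acids to glycerol, gave 0 calls among 7 genes in limma's test. At an unadjusted p under 0.05, 4 were lower and 1 higher, against 18.3% and 15.3% of all genes. Gpam, the mitochondrial enzyme that adds the first fatty acid, read 10.47, 9.89, 10.53 and 10.71 in transgenic livers, against 10.99, 10.63, 11.51 and 10.70 in controls. Gpam stood at -0.55 (95% interval -1.05 to -0.06, adjusted p = 0.12), with transgenic replicate 4 just above control replicates 2 and 4. Lpin1, a phosphatidate phosphatase, read 9.58, 9.73, 10.44 and 9.61 in transgenic livers, against 10.76, 10.85, 10.64 and 9.77 in controls. Control replicate 4 lay apart from the other controls and among the transgenic values, and the log2 fold change was -0.66 (-1.25 to -0.08, adjusted p = 0.115). Lpin2, its relative, was lowest in replicate 4 of each group (9.49 in the transgenic and 9.79 in the control liver) and stood at -0.29 (adjusted p = 0.384). Agpat2, which adds the second fatty acid, had a log2 fold change of -0.29 (-0.51 to -0.07, adjusted p = 0.0904).

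The last step of triglyceride synthesis is carried out by either of a pair of unrelated enzymes, and their values had opposite signs. Dgat2 read 11.47, 11.57, 11.30 and 11.06 in transgenic livers, against 10.99, 10.85, 11.01 and 10.95 in controls. All transgenic livers lay above all controls, transgenic replicate 4 only just. Dgat2 stood at 0.40 (SE 0.11, 95% interval 0.15 to 0.66, adjusted p = 0.0608), past the threshold after quantile normalization (0.0474) and without transgenic replicate 4 (0.0196). Dgat1 stood at -0.18 (-0.37 to 0.02, adjusted p = 0.179), and passed as lower after quantile normalization (-0.33, adjusted p = 0.0494). Whether the pair differed in its response was not tested. Mogat1, which acylates monoacylglycerol, read 3.22, 3.33, 3.16 and 3.30 in transgenic livers, against 3.49, 3.56, 3.41 and 3.41 in controls. These values lie under every array median, so the difference of -0.21 (adjusted p = 0.104) has an uncertain size although the groups did not overlap.

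Lipolysis gave 0 calls among 5 genes in limma's test. At an unadjusted p under 0.05, 2 were lower, against 18.3% of all genes. Both of those lay lower in every transgenic liver than in any control, as did 11.2% of all genes. Mgll, the lipase that splits monoacylglycerol, read 6.56, 6.12, 7.94 and 7.88 in transgenic livers, against 8.62, 8.21, 8.58 and 8.69 in controls. The transgenic livers fell into a low pair, replicates 1 and 2, and a pair close to the controls, replicates 3 and 4. The log2 fold change was -1.40, or 2.64-fold (SE 0.38, adjusted p = 0.0564), just outside the threshold; Mgll passed in 7 of 18 alternative settings, over a range of 0.0260 to 0.218. G0s2, which inhibits the triglyceride lipase ATGL, read 6.94, 6.34, 6.95 and 7.04 in transgenic livers, against 7.45, 7.38, 7.22 and 7.69 in controls. Transgenic replicate 2 was set well below the other transgenic livers. The log2 fold change of G0s2 was -0.62 (SE 0.16, adjusted p = 0.054), and it passed without transgenic replicate 2 (-0.46, adjusted p = 0.0459) and in 7 of 18 alternatives in all.

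The other lipases were not called, and their groups overlapped. Pnpla2, the gene of ATGL itself, had a log2 fold change of 0.27 (95% interval -0.04 to 0.58, adjusted p = 0.193). Pnpla3, a lipase whose gene SREBP-1c activates, stood at -0.27 (-0.59 to 0.05, adjusted p = 0.204). Lipe, the hormone-sensitive lipase, stood at -0.12 (-0.41 to 0.17, adjusted p = 0.519).

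Of 6 droplet protein genes 1, Plin5, was called lower, beside 1.67% of all genes. At an unadjusted p under 0.05, 4 of the 6 were lower, against 18.3% of all genes. Plin5, the perilipin that holds droplets against mitochondria, read 6.97, 6.87, 7.07 and 7.04 in transgenic livers, against 7.33, 7.96, 7.46 and 7.39 in controls. The transgenic values lay close together below every control, and control replicate 2 lay above the rest. The fall was 0.55 on the log2 scale, or 1.46-fold (SE 0.14, adjusted p = 0.0454). Leaving out transgenic replicate 1 or 2 ended the call (adjusted p = 0.123 and 0.0678), as did leaving out any 1 of control replicates 1 to 4 (0.07795, 0.0682, 0.104 and 0.0754). Median centring (-0.47, adjusted p = 0.0603) and testing all deposited probe sets (0.0752) ended it too, and it held in 8 of 18 alternative settings. Without control replicate 2 the fall was 0.41, and without transgenic replicate 2 it was 0.51.

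Further coat proteins lay lower without being called. Plin2, the general droplet coat of liver, read 10.31 to 10.57 in transgenic livers and 10.52 to 11.02 in controls, a log2 fold change of -0.39 (95% interval -0.65 to -0.12, adjusted p = 0.0695). Plin4, whose gene lies next to Plin5, stood at -0.43 (-0.74 to -0.12, adjusted p = 0.0764) with values of 4.78 to 5.30 in transgenic livers and 5.27 to 5.61 in controls, near the array medians. Cideb, which takes part in loading very low density lipoprotein, read 10.95, 10.45, 10.96 and 11.05 in transgenic livers, against 11.21, 11.09, 11.17 and 11.25 in controls. Its groups did not overlap, and transgenic replicate 2 was set apart below the others; the log2 fold change was -0.33 (SE 0.13, adjusted p = 0.119). Cidec, a protein of droplet fusion that rises in fatty liver, stood at 0.01 (-0.39 to 0.41), and Cidea, its relative, at -0.20 (-0.45 to 0.04). Cidea lies under every array median, so the size of its difference is uncertain.

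Across all roles 8 of the 37 genes lay lower in every transgenic liver than in any control (Me1, Elovl5, Mogat1, Mgll, G0s2, Cideb, Plin5 and Mfsd2a), beside 11.2% of all genes. Dgat2 was the 1 gene that lay higher in every transgenic liver, beside 11.2% of all genes (22.4% in either direction). Cd36 was called without such a separation. The plot of single values shows how near the groups come in each.

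**Figure D3:**
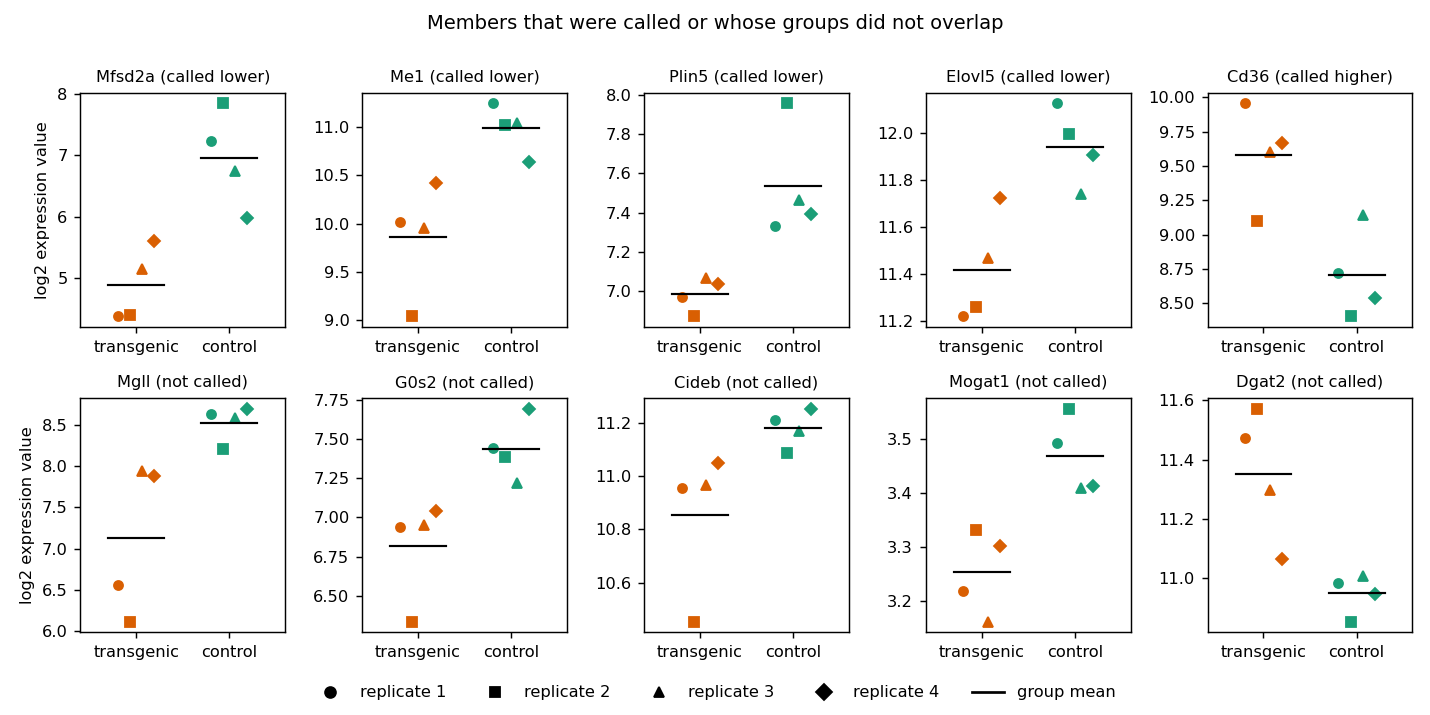
Log2 expression value (vertical axes, each panel with its own range) of the 10 genes that were called or whose groups did not overlap, in 4 transgenic livers (orange, left) and 4 controls (green, right); marker shape gives the replicate number and the line the group mean. Transgenic replicate 2 (square) is the lowest transgenic liver for Me1, Mgll, G0s2, Cideb, Plin5 and Cd36, and Cd36 is the only panel in which the groups overlap.

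Uptake, activation and export gave 1 call in each direction among 5 genes, beside 4.67% of all genes called higher and 1.67% lower. Mfsd2a, a carrier of lysophospholipids whose liver transcript is known to be induced by fasting in mice, read 4.38, 4.41, 5.15 and 5.61 in transgenic livers, against 7.24, 7.84, 6.75 and 5.98 in controls. All transgenic livers lay below all controls, but transgenic replicate 4 and control replicate 4 were within reach of each other. The log2 fold change was -2.06, or 4.18-fold (SE 0.39, adjusted p = 0.0221); transgenic replicates 1 and 2 lie under every array median, so the size is uncertain. Mfsd2a was no longer called once transgenic replicate 1 (adjusted p = 0.0829) or control replicate 1, 2 or 3 (0.0734, 0.0682 and 0.0643) was dropped. Without transgenic replicate 2 it held at -1.90 (adjusted p = 0.0229), and of the 5 called genes Mfsd2a alone passed a test against a 1.2-fold change (0.0487).

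Cd36, a receptor that takes up long-chain fatty acids and is carried by hepatocytes, macrophages and endothelium, read 9.96, 9.10, 9.60 and 9.67 in transgenic livers, against 8.72, 8.41, 9.14 and 8.54 in controls. Transgenic replicate 2 was the lowest transgenic liver and lay just below control replicate 3, so the groups overlapped. The rise was 0.88 on the log2 scale, or 1.84-fold (SE 0.20, adjusted p = 0.0385), and 1.04 without transgenic replicate 2 (adjusted p = 0.00603). Dropping transgenic replicate 1 (adjusted p = 0.111) or control replicate 1, 2 or 4 (0.0897, 0.109 and 0.0834) ended the call, and so did quantile normalization (0.0508) and testing all deposited probe sets (0.0673). Macrophage markers were higher in the same livers, and transgenic replicate 2, whose marker mean of 9.98 exceeded the 8.64 to 8.99 of the remaining transgenic livers, had the lowest transgenic Cd36. The part of macrophages in the rise of Cd36 was not tested.

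The genes of export and activation were not called. Apob, the structural protein of very low density lipoprotein, had a log2 fold change of 0.22 (95% interval -0.12 to 0.55, adjusted p = 0.315). Mttp, which loads lipid onto apolipoprotein B, stood at -0.07 (-0.38 to 0.24, adjusted p = 0.73). In control replicate 2 both were low, with 11.91 for Apob against 12.50 to 12.63 in the other controls, and 10.28 for Mttp against 10.81 to 10.87. Acsl5, which activates fatty acids to their CoA esters, stood at -0.26 (-0.52 to 0.00, adjusted p = 0.155).

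Other genes of the pathway were read through 6 lists holding 121 genes, of which 108 were measured. Of these, 4 were called higher and 11 lower, with a median log2 fold change of -0.20, beside 4.67% and 1.67% of all genes and a median of -0.07. The lists of carbon supply and of glycerolipid synthesis gave 0 and 1 calls. Lists and members were drawn up with earlier results of these data known, so these counts describe the lists. They rested on single arrays: 0 were called lower without transgenic replicate 1, control replicate 1 or control replicate 2, 1 without control replicate 4, 3 without control replicate 3, 7 without transgenic replicate 2 and 17 without transgenic replicate 4. The number called higher was 1 without transgenic replicate 1, control replicate 2 or control replicate 3, 2 without control replicate 1 or 4, and 8 without transgenic replicate 3. Counts over all genes moved in the same fits, with 199 higher and 3 lower without transgenic replicate 1. Without transgenic replicate 4 they were 1636 and 944.

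Regulators of SREBP-1c and of lipogenesis gave 5 calls among 20 measured genes, all lower, beside 1.67% of all genes. Scap, which escorts SREBP from the endoplasmic reticulum, read 8.33, 8.05, 8.69 and 8.77 in transgenic livers, against 9.52, 9.10, 9.17 and 9.29 in controls. It fell by 0.81 (SE 0.16, adjusted p = 0.0276). The retention proteins Insig1 and Insig2, which hold Scap back, fell by 0.72 and by 0.58 (adjusted p = 0.0417 and 0.0367). Nr0b2, a nuclear receptor that represses transcription in response to bile acids, fell by 0.91, and Ppargc1b, a coactivator of SREBP-1c, by 0.47; Ppargc1b and Insig2 are named beyond the rule for naming genes. Each of the 5 kept its call in 2 to 4 of the 8 fits that left out 1 array. Without transgenic replicate 2 Scap stood at -0.67 (adjusted p = 0.0189) and Insig1 was not called (0.0555).

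Droplet proteins and lipases outside the 37 gave 3 calls among 19, all lower, beside 1.67% of all genes. Fitm1, which helps package triglyceride into droplets, read 6.76, 5.86, 6.76 and 7.04 in transgenic livers, against 8.33, 8.28, 7.91 and 7.49 in controls. The groups did not overlap, and Fitm1 fell by 1.40 (SE 0.26, adjusted p = 0.0207), or by 1.15 without transgenic replicate 2 (adjusted p = 0.00649). Hsd17b11 and Mettl7b, both found on droplets, fell by 0.49 and by 0.50 (adjusted p = 0.0487 and 0.0483), and both calls were lost without transgenic replicate 2 (0.0673 and 0.0649).

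Uptake and lipoprotein genes outside the 37 gave 3 calls higher and 2 lower among 21, beside 4.67% and 1.67% of all genes. Lpl, the lipase that frees fatty acids from lipoproteins, read 10.76, 10.91, 10.69 and 10.52 in transgenic livers, against 9.60, 9.85, 10.11 and 9.67 in controls. It rose by 0.91 (SE 0.13, adjusted p = 0.00759) and stayed called in all 18 alternative settings, with adjusted p from 0.00139 to 0.0372. Apobec1, the enzyme that edits Apob messenger RNA, rose by 1.04 and Acsl4, which activates arachidonate, by 0.93 (adjusted p = 0.0146 and 0.0370). All 3 lay higher in every transgenic liver than in any control, and macrophages are known to express Lpl and Acsl4; macrophage markers were higher in the same livers (median log2 fold change 1.48), and their part in these rises was not tested. Apoa5, an apolipoprotein that activates lipoprotein lipase, fell by 0.86, and Fabp1, the liver fatty acid binding protein, by 0.58 (adjusted p = 0.0438 and 0.0432); both are named beyond the rule for naming genes, and Fabp1 was not called without transgenic replicate 2 (0.0544).

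In the remaining lists Elovl7, an elongase of saturated fatty acids, was called higher and Lpcat3 lower. Elovl7 read 7.82, 8.71, 5.40 and 6.53 in transgenic livers, against 4.74, 4.57, 4.68 and 4.76 in controls. The control values lie under every array median, and the transgenic livers were spread widely, so the log2 fold change of 2.43 (SE 0.58, adjusted p = 0.0419) has an uncertain size. Lpcat3, which puts polyunsaturated fatty acids into phospholipids, fell by 0.52 (adjusted p = 0.0414), a call lost without transgenic replicate 2 (0.0563). Acss2, which makes acetyl-CoA from acetate and had the smallest p among the genes of carbon supply, read 9.56, 8.45, 10.20 and 10.78 in transgenic livers, against 11.41, 10.97, 11.40 and 11.06 in controls. It was lower in every transgenic liver but not called (log2 fold change -1.46, adjusted p = 0.0599). The plot of the lists shows where the calls lie.

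**Figure D4:**
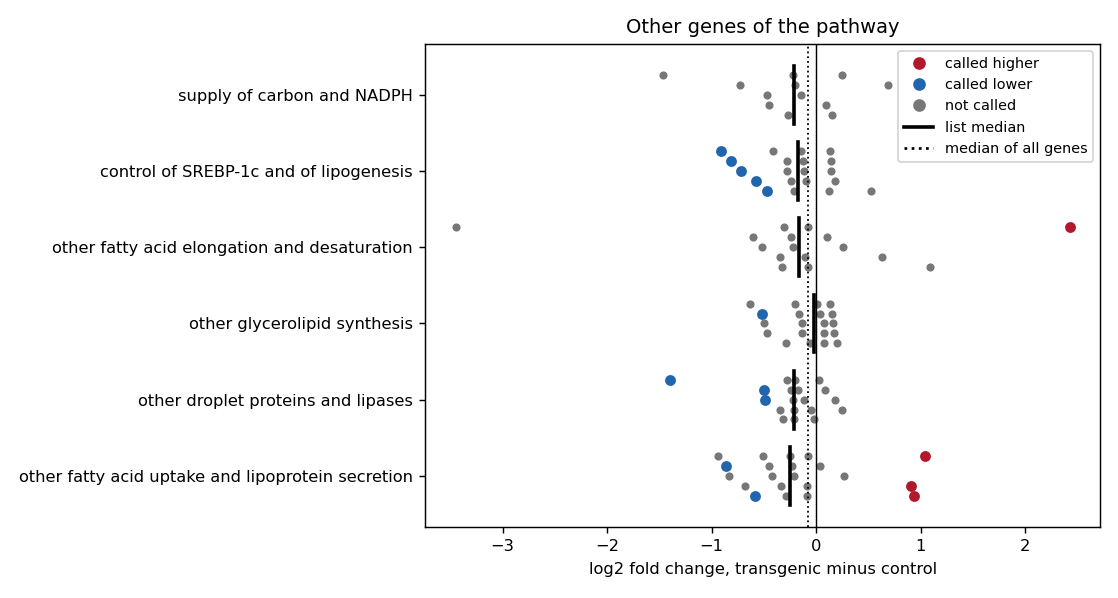
Log2 fold change (transgenic minus control, horizontal axis) of 108 other pathway genes in 6 lists (rows; points are spread vertically for sight only); black bars are list medians and the dotted line the median of all genes (-0.07). The 11 genes called lower (blue) include 5 regulators of SREBP-1c and lipogenesis, and the 4 called higher (red) are Elovl7, Apobec1, Acsl4 and Lpl.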

How the data were processed

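Liver RNA of 4 transgenic and 4 control mice was measured on 8 Affymetrix arrays. Per the submitters' processing notes the authors used Affymetrix Expression Console, and what they deposited is 1 log2 value for each probe set and array; how arrays were normalized is not stated in the labels. That the base is 2 was inferred from the range of the values. With 4 arrays a group precision is limited. The p-values set the difference between groups against the spread between animals within a group, as moderated by limma.

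Of 35556 probe sets, 21789 carry 1 gene symbol, 1621 several and 12146 none; those with 1 symbol were tested. Limma 3.58.1 (R 4.3.3) fitted the group as its only term, with empirical Bayes moderation, two-sided tests and Benjamini-Hochberg adjustment over all 21789. A gene was read through its probe set with the highest mean over 8 arrays, which gave 19938 genes. SE and 95% intervals are limma's. No further normalization was applied. On simulated data with real means and spreads (19938 genes), the same steps called 49 of 50 genes raised by 2 on the log2 scale. They called 38 of 50 raised by 1. For genes shifted by -2 and -1 the figures were 49 and 46, and false calls numbered 12. Smaller shifts were not simulated. The median SD of the lipid genes described here was 0.235 in transgenic and 0.255 in control livers. For all genes it was 0.160 and 0.138. The simulated rates therefore do not give the chance of a call for the lipid genes. A lipid gene that was not called is not thereby shown to be unchanged.

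The members and lists were chosen with earlier results of these data known. All 37 members are named, with values per array for those called, not overlapping or with an absolute log2 fold change of at least 0.5; of the other lists, up to 3 called genes or the 1 with the smallest p. Promoters came from RefSeq (GRCm38.p6). The alternatives tried are quantile normalization, median centring, filters on dim probe sets, averaged probe sets, all probe sets, other moderation, array weights, a replicate block, limma's treat with a 1.2-fold bound, and fits that each omit 1 array.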

Additional observations from a re-analysis of the deposited data

Results flagged for a closer look

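In 5 of 74 group values (37 genes in each group) 1 array lay far from the other 3, by the gap between them relative to the range of the group; chance alone gives about 1 in 20. Transgenic replicate 2 was low for G0s2 (6.34, against 6.94 to 7.04 in the other transgenic livers) and for Cideb (10.45, against 10.95 to 11.05). Control replicate 2 was low for Mttp (10.28, against 10.81 to 10.87 in the other controls) and for Acsl5 (11.46, against 11.58 to 11.60). It was high for Cidea (4.56, against 4.40 to 4.43), at readings under every array median.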

How the results depend on the processing

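The median log2 fold change of the 37 genes stayed negative in all 18 alternatives, from -0.34 after quantile normalization to -0.20 with arrays centred on their medians. The number called higher and lower was 1 and 4 as deposited, 1 and 8 after quantile normalization, 1 and 1 with centring and 1 and 7 with array weights. It was 0 and 1 when all deposited probe sets were tested, which adjusts over more tests, and 0 and 1 in the test against a 1.2-fold change. The 1 lower call with centring, over all probe sets and against a 1.2-fold change was Mfsd2a. With the replicate block it was 1 and 1, Cd36 higher and Mgll lower, and none of Mfsd2a, Me1, Plin5 and Elovl5 was called (adjusted p = 0.0584, 0.0594, 0.0781 and 0.0824). The numbers were not taken as pairs, since the labels call the arrays biological replicates and name no pairing. Deviations of same-numbered arrays correlated at 0.243, -0.0299, 0.256 and -0.129, and those of unlike-numbered arrays at -0.264 to 0.175. These values do not settle whether the numbers mark pairs. Leaving out 1 array gave 0 to 2 higher and 0 to 6 lower. Over all genes, 932 were higher and 333 lower as deposited, 1066 and 638 after quantile normalization, 618 and 97 with centring, 425 and 54 over all probe sets, 1030 and 501 with array weights, 670 and 174 with the replicate block and 271 and 8 against a 1.2-fold change; leaving out 1 array gave 192 to 1636 and 3 to 944. The other pathway genes stood at 4 and 11 as deposited, 2 and 2 with centring, 2 and 2 over all probe sets and 1 and 0 against a 1.2-fold change, with 6 lower under the replicate block; leaving out 1 array gave 1 to 8 and 0 to 17. Signs turned for genes near 0: Acaca and Mttp stood at 0.051 and 0.0096 with centring, and leaving out 1 array moved Acaca over -0.23 to 0.12, Fads1 over -0.15 to 0.015 and Cidec over -0.094 to 0.18. Of 660 fits of single members in alternatives, 587 kept direction and side of the threshold. The filters on dim probe sets left 35 and 33 of the 37 genes. No pseudocount was tried, since the values are already logs. The cause of these changes was not tested.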

Other observations

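Outside the rule for naming genes, and chosen after their values were seen, 2 relatives of the members had large differences that were not called. Elovl3, an elongase of very long chains, read 3.44, 3.23, 3.56 and 4.06 in transgenic livers, against 9.78, 4.99, 3.83 and 9.48 in controls. Control replicates 1 and 4 were high while control replicate 3 lay among the transgenic values, and the log2 fold change was -3.45 (95% interval -6.14 to -0.75, adjusted p = 0.0933). Scd2, the stearoyl-CoA desaturase that in mice prevails outside the adult liver, read 7.13, 8.40, 6.78 and 7.10 in transgenic livers, against 6.58, 5.97, 6.29 and 6.19 in controls. It lay higher in every transgenic liver (log2 fold change 1.09, 95% interval 0.41 to 1.78, adjusted p = 0.06), and transgenic replicate 2, the liver with the highest macrophage markers, was the highest; the part of those cells in this difference was not tested.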
